A study of Homo sapiens with 5 samples.

Results

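The major histocompatibility complex (MHC) of human chromosome 6 held 1510 of the 366709 intervals in 4 lists of DNA replication initiation sites, and these 1510 intervals are described here. They were all intervals that overlapped chromosome 6 from base 28510000 to base 33480000 of hg38, a region of 4.97 Mb. They comprised 113 of 23905 origins called by ini-seq 2 after a reaction of 3 h, 28 of 10181 origins called after 15 min, 524 of 147657 peaks of the 0.5 to 2 kb fraction of short nascent strands (SNS-seq) and 845 of 184966 peaks of the 2 to 4 kb fraction. The rule for a member used its position and no measured value of the interval.

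The study asked where human replication starts and how often each start site is used. For ini-seq 2, the bladder carcinoma line EJ30 was held in late G1 phase with mimosine, and its nuclei began replication in vitro in a cytosolic extract of HeLa, a cervical carcinoma line. Br-dUTP made newly replicated DNA heavy on 1 strand (heavy-light, HL), and a density gradient parted it from unreplicated light-light (LL) DNA before both were sequenced. SNS-seq was run on EJ30 cells, and its nascent strands of 0.5 to 2 kb and of 2 to 4 kb were called separately against genomic DNA. The 3 h list came from 2 pooled biological replicates, no replicate number was given for the 15 min list or for either SNS-seq fraction, and the input DNA library was not analysed here. The replicates of the 3 h reaction were compared by the authors before pooling, but the deposited list does not keep them apart, so each condition was a single list here and its values could not be checked between replicates. The intervals given below cover counting error alone, at the 95% level (exact Poisson for densities, exact binomial for shares, order statistics for medians), and no p-value could be given. Since reads per interval were not part of the lists, depth is unknown for single intervals. Per the study's figure legends, the HL library of the shorter reaction had fewer mapped reads than that of the longer one. The part of this difference in the comparisons of 15 min with 3 h was not tested.

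The MHC encodes the proteins that show peptides to T cells. Class I molecules, such as HLA-B and HLA-C, present peptides from inside the cell and are made by nearly all nucleated cells, whereas class II molecules, such as HLA-DR, HLA-DQ and HLA-DP, are made mainly by antigen-presenting cells. Between the class I and class II genes lies the class III block, packed with genes for complement components, tumour necrosis factors, heat shock proteins and many housekeeping functions. A replication origin is a site where DNA synthesis begins in both directions, and human origins are found often at GC-rich gene starts and CpG islands.

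The region was cut at gene borders of the GENCODE 44 annotation. The extended class I block ran from 28510000 to 29672482, class I from ZFP57 at 29672483 to the end of MICB at 31511124, class III from 31511125 to the end of NOTCH4 at 32224067, class II from 32224068 to 33162680 and extended class II from COL11A2 at 33162681 to 33480000. Each interval was given to the block that held its centre.

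Stretches of 180 bases from 6 origins are shown because they span what the results turn on: the most efficient origin of each of class I, class III and class II, the origin inside HLA-B, the origin of the antigen transporter gene TAP1, and, for contrast, the class III origin of at least 1 kb with the lowest CpG ratio. All are the plus strand of hg38, 5′ to 3′, with every CpG dinucleotide in capitals.
RNF39: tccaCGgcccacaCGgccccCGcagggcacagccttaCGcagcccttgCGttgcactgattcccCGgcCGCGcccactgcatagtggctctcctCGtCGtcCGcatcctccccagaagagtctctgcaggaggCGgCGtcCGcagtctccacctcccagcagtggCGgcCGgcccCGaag
HLA-B: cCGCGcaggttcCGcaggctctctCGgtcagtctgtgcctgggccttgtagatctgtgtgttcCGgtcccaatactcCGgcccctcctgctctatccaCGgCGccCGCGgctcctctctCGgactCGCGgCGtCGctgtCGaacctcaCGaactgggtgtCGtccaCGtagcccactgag
C2 and EHMT2: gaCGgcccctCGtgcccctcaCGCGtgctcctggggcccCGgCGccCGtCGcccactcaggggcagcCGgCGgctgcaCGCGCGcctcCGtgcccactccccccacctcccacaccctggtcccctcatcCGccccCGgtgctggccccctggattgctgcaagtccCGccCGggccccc
GPSM3: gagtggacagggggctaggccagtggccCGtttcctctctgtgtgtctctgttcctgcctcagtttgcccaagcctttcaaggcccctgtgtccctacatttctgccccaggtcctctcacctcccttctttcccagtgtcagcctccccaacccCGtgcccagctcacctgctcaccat
BRD2: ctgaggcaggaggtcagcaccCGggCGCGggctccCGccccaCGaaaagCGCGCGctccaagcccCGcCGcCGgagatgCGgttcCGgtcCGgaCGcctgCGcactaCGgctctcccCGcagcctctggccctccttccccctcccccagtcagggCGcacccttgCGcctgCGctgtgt
TAP1 and PSMB9: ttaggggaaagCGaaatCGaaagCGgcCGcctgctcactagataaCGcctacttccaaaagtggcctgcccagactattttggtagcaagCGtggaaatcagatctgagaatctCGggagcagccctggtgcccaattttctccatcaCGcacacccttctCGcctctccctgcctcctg
The RNF39 stretch lay at chr6:30071361-30071540 and held 17 CpG, the HLA-B stretch at chr6:31356711-31356890 held 19, the C2 and EHMT2 stretch at chr6:31897361-31897540 held 18, and the BRD2 stretch at chr6:32968414-32968593 held 21. The TAP1 and PSMB9 stretch at chr6:32853817-32853996 held 9 CpG, and the GPSM3 stretch at chr6:32192303-32192482 held 2. The GPSM3 stretch was 60.6% G and C and the TAP1 stretch 54.4%, although the latter had more CpG. Since the GPSM3 origin was picked for its low CpG ratio, this pair does not show how CpG number goes with GC content. Each stretch was the one without annotated untranslated sequence nearest the middle of its origin, so it need not resemble the whole origin. The whole GPSM3 origin was 61.6% G and C and the whole TAP1 origin 66.1%.

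Density of initiation sites rose from class II through class I to class III in the 3 h list and in both SNS-seq fractions. At 3 h, class III held 37 origins, or 51.9 per Mb (36.5 to 71.5), class I held 42, or 22.8 per Mb (16.5 to 30.9), and class II held 8, or 8.52 per Mb (3.68 to 16.8). The interval of class III lay above the other two, those of class I and class II met narrowly at 16.5 to 16.8, and the whole genome had 8.14 origins per Mb. The extended class II block, with 20 origins and 63 per Mb (38.5 to 97.3), was near class III, and extended class I, with 6 origins and 5.16 per Mb (1.89 to 11.2), was near class II. SNS-seq gave the same order in the middle blocks. The 0.5 to 2 kb fraction had 223 peaks per Mb in class III (190 to 261), 93 in class I (79.6 to 108.0) and 35.2 in class II (24.2 to 49.4), against 50.2 in the genome. The 2 to 4 kb fraction had 386 per Mb in class III (341 to 434), 179 in class I (161 to 199.9) and 44.7 in class II (32.2 to 60.5), against 62.9 in the genome. Class II was thus the block below the genome in both fractions, and its upper limits of 49.4 and 60.5 also lay below the genome values. At 15 min the densities were 9.82 per Mb in class III (7 origins, 3.95 to 20.2), 4.89 in class I (9 origins, 2.24 to 9.29) and 3.20 in class II (3 origins, 0.659 to 9.34), against 3.47 in the genome, and these intervals overlapped each other.

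**Figure D1:**
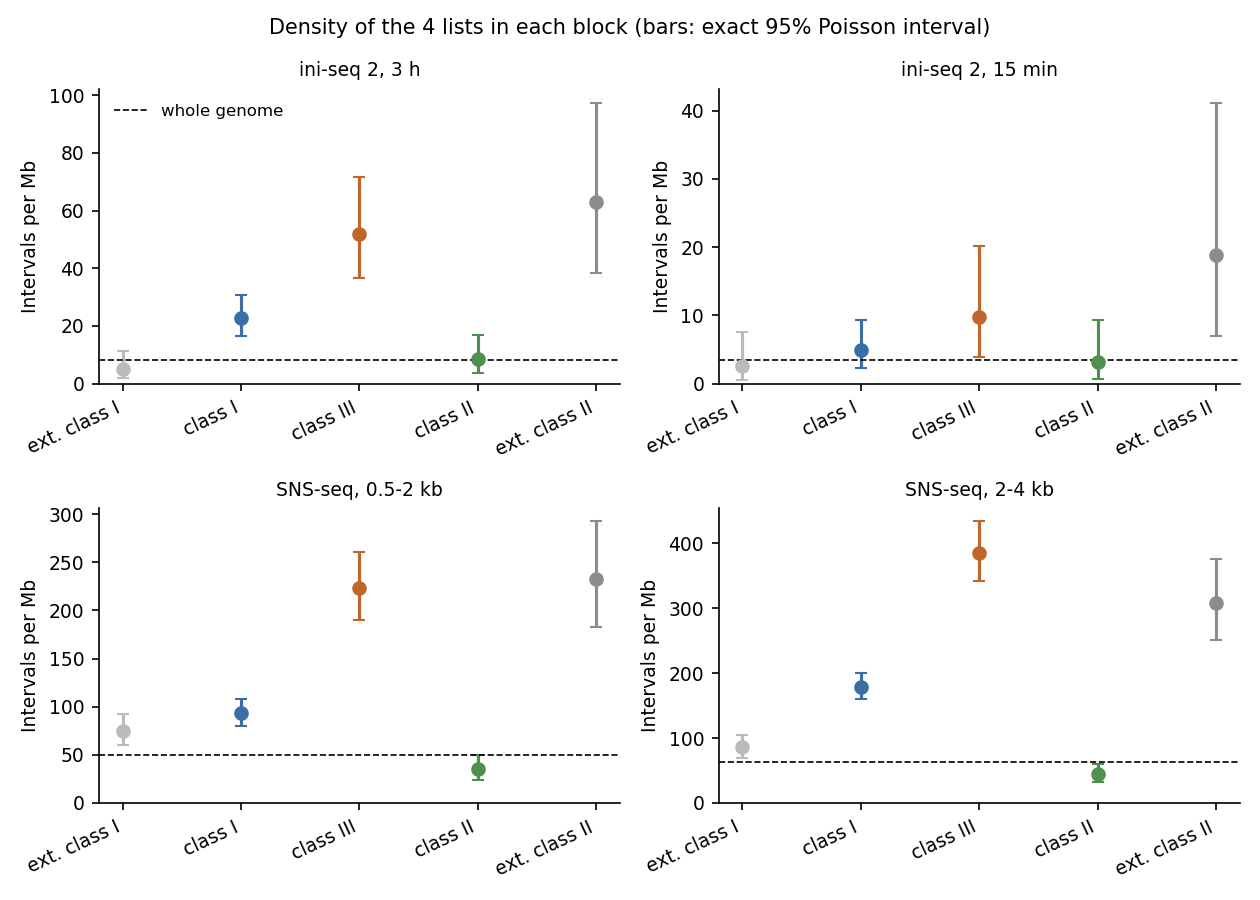
Density of the 4 lists in the 5 blocks, in intervals per Mb, with one panel for each list. Points are the count divided by the block length, bars are exact 95% Poisson intervals, and the dashed line is the whole genome; at 3 h class III stood at 51.9 per Mb, class I at 22.8 and class II at 8.52, against 8.14 in the genome.

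The 2 SNS-seq fractions differed in their excess over the genome. For each peak of the 0.5 to 2 kb fraction there were 1.93 peaks of the 2 to 4 kb fraction in class I, 1.73 in class III, 1.27 in class II and 1.25 in the genome. Relative to the genome, the 3 h origins, the 0.5 to 2 kb peaks and the 2 to 4 kb peaks were 6.38, 4.44 and 6.13 times as dense in class III, and 2.81, 1.85 and 2.85 times as dense in class I. In both blocks the 3 h origins and the longer nascent strands therefore exceeded the genome by similar factors, and the shorter strands by less. Peaks of 2 to 4 kb strands covered 226 kb per Mb of class III, 106 kb per Mb of class I and 24.7 kb per Mb of class II, against 43.1 kb per Mb of the genome.

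Gene density followed the same order of blocks, and its part in the densities above was not tested. Class III held 67 starts of protein-coding genes, or 94.0 per Mb, class I held 49, or 26.7 per Mb, class II held 22, or 23.4 per Mb, and the genome had 6.82 per Mb. Per coding gene start, the 3 h list thus gave 0.857 origins in class I, 0.552 in class III, 0.364 in class II and 1.19 in the genome. Relative to its genes, no block of the middle MHC had as many origins as the genome, and class I had more than class III although it had fewer per Mb.

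Within 1 kb of a 3 h origin lay 73 of the 183 coding gene starts of the MHC, or 39.9% (32.7 to 47.4), against 55.4% of 20033 starts in the genome. The share was 31 of 67 in class III (46.3%, 34.0 to 58.9), 21 of 49 in class I (42.9%, 28.8 to 57.8) and 5 of 22 in class II (22.7%, 7.82 to 45.4). A gene start here was the outermost one annotated, and taking the start of each gene's canonical transcript instead raised class I to 27 of 49 (55.1%) and left class III at 30 of 67 and class II at 5 of 22. At 15 min, 24 of the 183 starts had an origin within 1 kb, or 13.1% (8.59 to 18.9), against 38.7% in the genome. In class III it was 7 of 67 starts (10.4%, 4.30 to 20.3). The 2 to 4 kb SNS-seq peaks gave another picture: 132 of the 183 starts (72.1%) had one within 1 kb, near the 73.6% of the genome, and in class III 60 of 67 did (89.6%, 79.7 to 95.7). These peaks were also denser, in class III 386 per Mb against 51.9 origins per Mb at 3 h. How much of each block lies within 1 kb of a peak is not given here, so the shares of different lists are not alike in background. The 0.5 to 2 kb peaks lay at 97 of the 183 starts (53.0%, 45.5 to 60.4), against 65.2% in the genome.

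**Figure D2:**
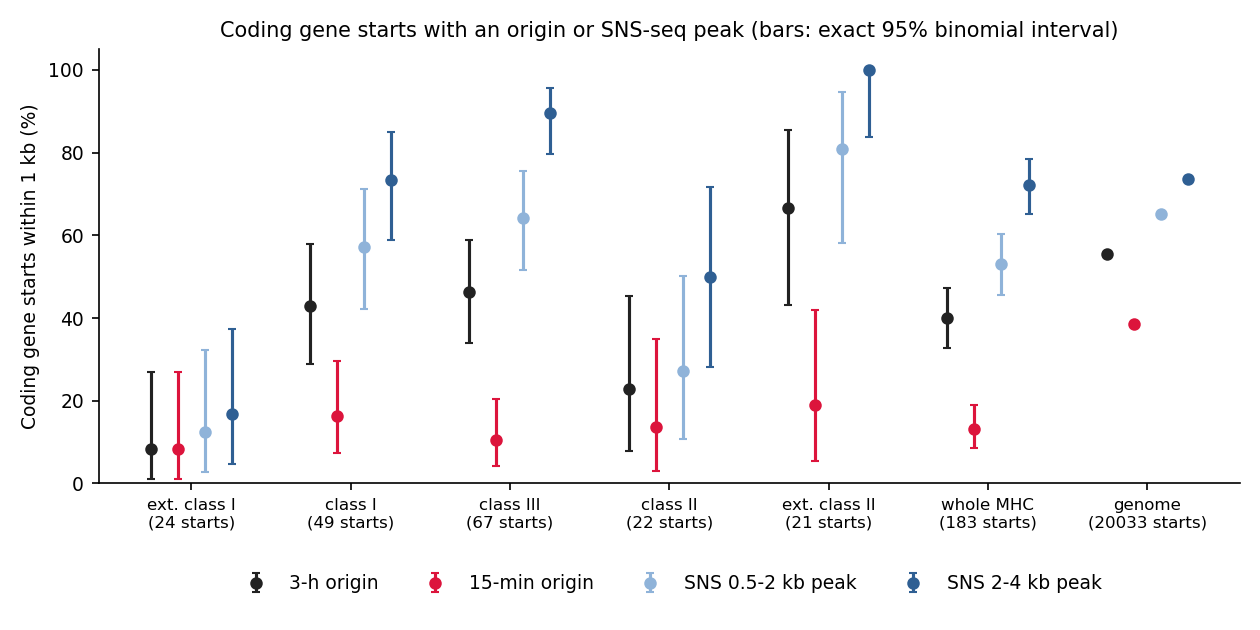
Share of coding gene starts, in percent, within 1 kb of a 3 h origin, a 15 min origin, or an SNS-seq peak of either fraction, in each block, in the whole MHC and in the genome. Points are shares and bars exact 95% binomial intervals; in class III 89.6% of starts had a 2 to 4 kb SNS-seq peak and 10.4% a 15 min origin.

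The HLA genes of class I and class II differed in whether a 3 h origin lay at their start. All 7 genes of the HLA class I list (HLA-B, HLA-C, HLA-E, HLA-F, HLA-G, MICA and MICB) had a 3 h origin within 1 kb of the start of their canonical transcript, and none of the 13 genes of the HLA class II list did. Over all coding genes, 58.5% of canonical starts had one. With the outermost annotated start the counts were 4 of 7 and 1 of 13, because GENCODE 44 lists transcripts of HLA-B, MICA and MICB that begin between 3120 and 9967 bp away from the origin, and a long transcript of HLA-DMA that begins in the origin of BRD2, 15204 bp or more from the canonical start. Which start is used therefore decides both counts.

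The origins of the classical class I genes HLA-B and HLA-C, which present peptides to cytotoxic T cells, were short and in the high efficiency class. Efficiency is the share of HL reads among all reads of an origin, and the authors listed origins with a value of at least 0.8. The origin in HLA-B, from 31356501 to 31357100 over coding sequence, had an efficiency of 0.957, lay 79 bp from the canonical start and was the second most efficient of class I. The origin at HLA-C, from 31271901 to 31272200, had 0.914 and contained the canonical start. Both passed the limit of the high efficiency class (0.9065, above which lay the most efficient 33.3% of the 3 h list). Of the non-classical genes, which serve mainly as ligands of natural killer cell receptors, HLA-F had an origin of efficiency 0.871, HLA-E one of 0.838 and HLA-G one of 0.827. MICA and MICB, stress-induced ligands of natural killer cells, had origins of 0.879 and 0.863. The HLA-F and HLA-G origins were 900 bp long, the HLA-E origin 700 bp, the MICA origin 900 bp and the MICB origin 1000 bp, whereas that of HLA-B was 600 bp and that of HLA-C 300 bp.

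MICA was the 1 gene of this list with a 15 min origin within 1 kb of its canonical start, at 6 bp, against 41.4% of all canonical starts. Its 15 min origin, from 31403601 to 31403900, had a Z-score of -1.60, where the Z-score ranks origins of the 15 min list about a mean of 0 with an SD of 1. For HLA-B and HLA-C the nearest 15 min origins were 46422 and 131509 bp from the canonical start, although both genes carried 3 h origins of the high class. The 2 to 4 kb SNS-seq fraction had a peak within 1 kb of all 7 canonical starts, against 75.7% in the genome. In the 0.5 to 2 kb fraction 7 of 7 had one as well, but no share over all canonical starts is given for this fraction. By outermost start it was 4 of 7, against 65.2% of all coding starts. Reads of these polymorphic, related genes are placed on the reference by their differences. Of the 50-mers around the outermost starts (1 kb), 95.3% occurred once in the reference for the median gene, from 75.7% at HLA-F to 98.8% at HLA-B. For HLA-B, MICA and MICB these starts lay 3120 to 9967 bp from the origin, so the values there do not describe the origin. What the divergence of the EJ30 alleles from the reference did to these values was not tested.

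The class II block was marked by a stretch of 583 kb without a 3 h origin, from 32255401 to 32838500. It held 10 coding gene starts: TSBP1 and BTNL2, a butyrophilin-like gene, then HLA-DRA, HLA-DRB5, HLA-DRB1, HLA-DQA1, HLA-DQB1, HLA-DQA2, HLA-DQB2 and HLA-DOB, which encode chains of the DR, DQ and DO molecules. The stretch had 0 origins at 15 min, 9 peaks in the 0.5 to 2 kb fraction (15.4 per Mb) and 14 in the 2 to 4 kb fraction (24.0 per Mb), so its SNS-seq peaks were sparser than in the block as a whole. In the genome 994 of 23881 spacings between 3 h origins (4.16%) were as wide, and on chromosome 6 it was 68 of 943 (7.21%). These are shares of spacings, whose median in the genome was 22.7 kb. The share of sequence that lies in spacings this wide is larger and is not given here. The GC content of the stretch was 40.3%, near the genome mean of 40.9%, and 92.3% of its 50-mers were unique in the reference, against 91.8% over the whole region. Neither value shows whether EJ30 carries this reference sequence, and the input DNA was not analysed here. What divergence of the EJ30 alleles from the reference did to the counts and distances of the stretch was not tested. Among the genes of the HLA class II list, HLA-DRB5 was farthest from a 3 h origin, at 274887 bp, and HLA-DRB1 was 248653 bp away. HLA-DPA1 and HLA-DPB1 lay outside the stretch but 80791 and 85511 bp from an origin. From the canonical starts, 5 of the 13 class II genes had a 2 to 4 kb SNS-seq peak within 1 kb, against 75.7% of all canonical starts, and 3 of 13 a 0.5 to 2 kb peak. By outermost start, 4 of 13 had a 0.5 to 2 kb peak, against 65.2% of all coding starts.

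**Figure D3:**
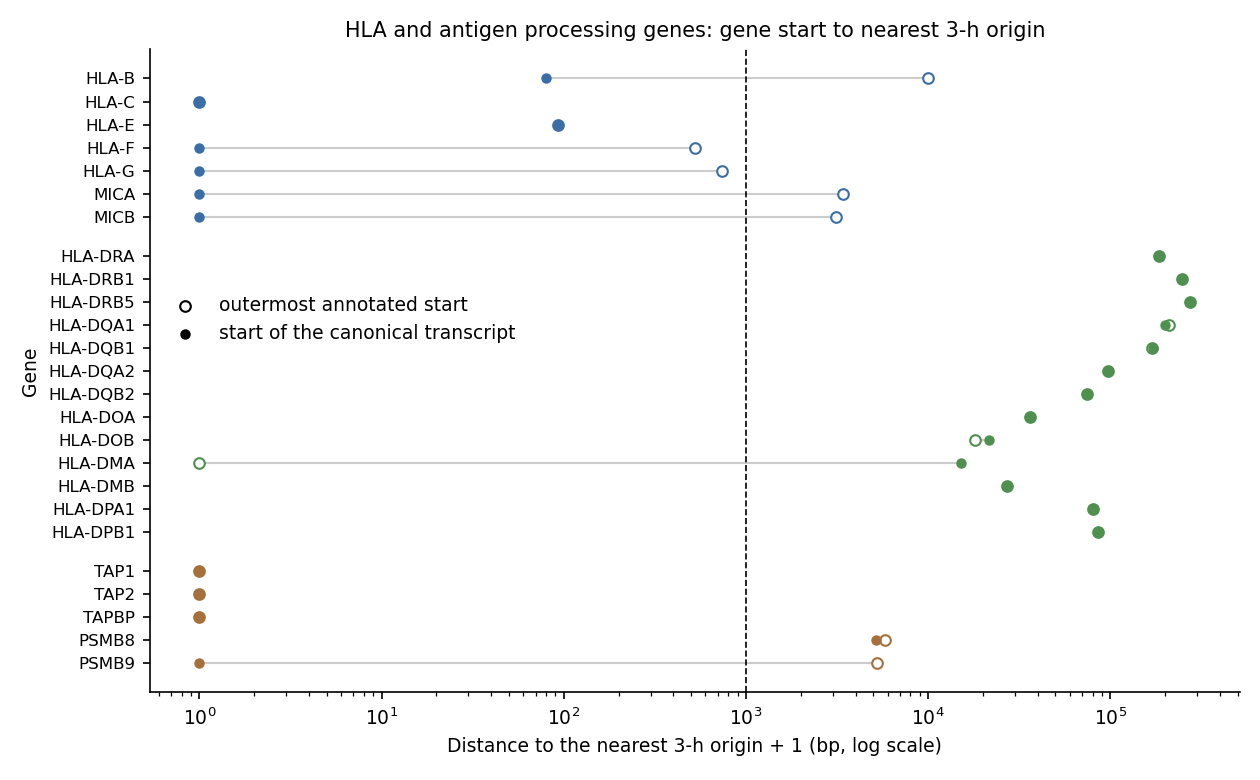
Distance in bp, on a log axis after adding 1, from the start of each HLA class I, HLA class II and antigen processing gene to the nearest 3 h origin. Open circles are outermost annotated starts, filled circles starts of canonical transcripts, and the dashed line marks 1 kb; all 7 class I genes lay within it by canonical start and none of the 13 class II genes did.

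Of the 8 origins of the class II block, 5 lay at the antigen processing genes TAP1 and TAP2 or in BRD2. TAP1 and TAP2 encode the transporter that carries peptides into the endoplasmic reticulum, and PSMB8 and PSMB9 encode subunits of the immunoproteasome that makes them. The origin shared by TAP1 and PSMB9, from 32853001 to 32854500, was the longest of the block at 1500 bp and had an efficiency of 0.883. The TAP2 origin, from 32838501 to 32838900, had 0.871 and closed the wide stretch without origins. Canonical starts of 4 of the 5 antigen processing genes lay inside a 3 h origin, where 58.5% of all canonical starts lay inside or within 1 kb of one, the exception being PSMB8, 5147 bp away, and TAPBP, the gene of tapasin in extended class II, had the least efficient of these origins at 0.805. The most efficient origin of class II, from 32968301 to 32969400, had 0.898 and covered the start of BRD2, which encodes a bromodomain protein that binds acetylated histones. The least efficient of the block, 0.803 from 32971901 to 32973300, also lay in BRD2, and the next, 0.820 from 32894401 to 32895200, in an exon of a non-coding gene. No class II origin was in the high class (0 of 8, up to 36.9%).

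All 3 class II origins called at 15 min had low Z-scores, of -1.94 at BRD2, -1.84 at an intergenic origin from 33161501 to 33162200 and -1.65 at TAP1. The 9 origins of class I at 15 min ranged from -1.80 to 1.08 and the 7 of class III from -1.26 to 1.01, so each of these blocks reached values above the mean of the list and class II did not.

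Median efficiency was lower in class III than in class I, with intervals that overlapped only at their edges. In class III it was 0.846 (0.836 to 0.868, n = 37), against 0.870 in class I (0.860 to 0.888, n = 42), 0.859 in class II (0.803 to 0.898, n = 8) and 0.873 in the genome. The intervals of class III and class I overlapped from 0.860 to 0.868, and each median lay outside the interval of the other block. The interval of class III ended below the genome median. In class III, 17 of 37 origins were in the low class (45.9%, 29.5 to 63.1) and 4 of 37 in the high class (10.8%, 3.03 to 25.4). In class I, 11 of 42 were low (26.2%) and 7 of 42 high (16.7%, 6.97 to 31.4). Over the whole MHC, 15 of 113 origins were in the high class, or 13.3% (7.62 to 20.9), against 33.3% of all origins, a share set by how the class was cut, and 43.2% of those of chromosome 6. Origins within 1 kb of a coding gene start showed the gap most: 10 of 58 in the MHC were in the high class (17.2%, 8.59 to 29.4), against 55.4% of such origins in the genome, and their median efficiency was 0.868 (0.856 to 0.883) against 0.914. Origins farther from coding starts had medians of 0.853 in the MHC (0.835 to 0.863) and 0.844 in the genome. The 3 h origins of the MHC were no shorter than others, with a median length of 700 bp in both.

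The most efficient origin of class III, from 31897001 to 31897900, had 0.970 and covered the canonical start of EHMT2, a histone methyltransferase, and the outermost start of C2, a complement component. Next came the origin at ZBTB12, a zinc finger gene, from 31901301 to 31902500 with 0.949, and one in coding exons of TNXB, the gene of the matrix protein tenascin-X, from 32087101 to 32088200 with 0.935. All 3 were called at 15 min, with Z-scores of 1.01, 0.36 and 0.01. TNXB also held the lowest values of the block, 0.802 from 32047601 to 32048700 and 0.811 from 32109101 to 32109900, and its longest origin, 2100 bp from 32095301 with 0.849. Origins in TNXB alone thus ran from 0.802 to 0.935. Of the 13 nuclear and signalling genes listed for class III, 8 had a 3 h origin within 1 kb, from 0.837 at MSH5, a meiotic recombination gene, to 0.970 at EHMT2. The share of all coding starts with one was 55.4%, or 58.5% by canonical start, and 8 of 13 was near it. Only EHMT2, VARS1, a valyl-tRNA synthetase gene, and LSM2, an RNA-binding protein gene, of these 13 had one at 15 min, against 38.7% of all coding starts, or 41.4% by canonical start.

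The few origins at the listed cytokine and heat shock genes of class III, those of LTA and LTB and that shared by HSPA1A and HSPA1L, were in the low class. This class held 7980 of all 23905 origins at 3 h, and it was also common among the other origins of class III. The lymphotoxin genes LTA and LTB, cytokines of the tumour necrosis factor family, had origins of 0.829 and 0.812, and TNF itself lay 3365 bp from the LTA origin. The heat shock genes HSPA1A and HSPA1L shared an origin of 0.814 over their divergent starts, and HSPA1B was 6763 bp from an origin. None of these 6 genes had a 15 min origin within 1 kb, against 38.7% of all outermost and 41.4% of all canonical coding starts. Of the complement genes and those of RCCX, a duplicated module that holds STK19, C4A, C4B, CYP21A2 and TNXB, 2 of 7 had a 3 h origin by either start, against 55.4% and 58.5% of all coding starts: C2 and STK19 by outermost start, STK19 and TNXB by canonical start. The widest stretch of class III without an origin, 74.9 kb from 31972701 to 32047600, held C4A, C4B and CYP21A2. Only 19.5% of its 50-mers were unique in the reference, against 84.7% of the block, so the absence of calls there cannot be told apart from loss of reads of 50 bp that match more than 1 place.

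In class I the most efficient origin was 1 of 44 in the genome with an efficiency of 1, a 300 bp origin from 30071301 to 30071600 in coding sequence of RNF39, a RING finger gene, and it was not called at 15 min. HLA-B was second, and a 300 bp origin beside DHX16, an RNA helicase gene of pre-mRNA splicing, from 30672701 to 30673000, came next with 0.939. The lowest were 0.818 from 31308001 to 31308700 in a non-coding exon and 0.821 from 30067101 to 30067500 at PPP1R11, an inhibitor of protein phosphatase 1. The longest origin of the whole region, 3000 bp from 30685901, covered the start of PPP1R18, another phosphatase regulator, with an efficiency of 0.839, and the longest 2 to 4 kb SNS-seq peak of class I, 6690 bp from 30684487 to 30691176, covered it. The longest origin of class I was thus in the low class, and its most efficient was 300 bp long. Of the 19 nuclear and housekeeping genes listed for class I, 10 had a 3 h origin within 1 kb of the outermost start and 12 of the canonical start, from 0.821 at PPP1R11 to 0.95 at GABBR1, a GABA receptor gene whose start lies just inside extended class I. These counts were near the shares over all coding starts, 55.4% and 58.5%. At 15 min the counts were 5 and 6, against 38.7% and 41.4% of all coding starts, with DDR1, a collagen receptor kinase, gained by its canonical start. The DDR1 origin had an efficiency of 0.916 and the highest 15 min Z-score of the region, 1.08, and the longest 0.5 to 2 kb SNS-seq peak of class I, 2985 bp from 30882810 to 30885794, covered it. The widest stretch of class I without an origin, 189 kb from 30955901 to 31144800, held the mucin genes MUC21 and MUC22 and genes of the skin barrier such as CDSN, and it still held 19 and 30 SNS-seq peaks of the short and the long fraction.

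**Figure D4:**
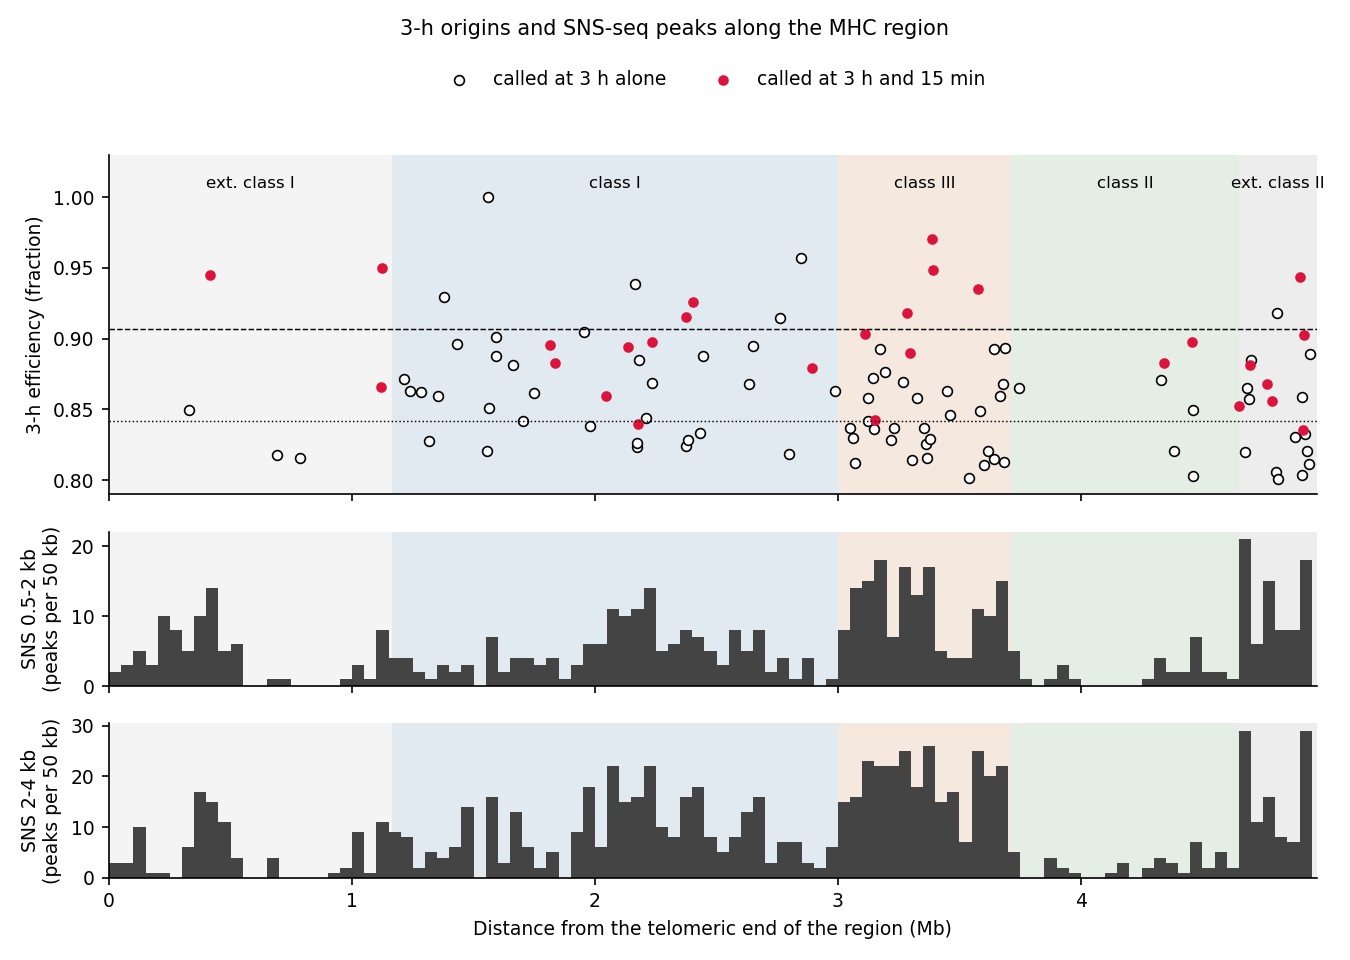
The 113 origins at 3 h by distance from the telomeric end of the region (Mb) and efficiency (fraction), filled where a 15 min origin overlapped, above the number of SNS-seq peaks of each fraction per 50 kb. Shading marks the 5 blocks and the dashed and dotted lines the limits of the high and low classes (0.9065 and 0.8419); the class II block shows the stretch of 583 kb without a 3 h origin.

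After 15 min, 28 of the 113 origins of the MHC overlapped a called origin, a recall of 24.8% (17.1 to 33.8), against 40.1% in the genome and 43.6% on chromosome 6. By block it was 9 of 42 in class I (21.4%, 10.3 to 36.8), 7 of 37 in class III (18.9%, 7.96 to 35.2) and 3 of 8 in class II (37.5%, 8.52 to 75.5), with overlapping intervals. Conversely, all 28 origins called at 15 min lay on a 3 h origin, where 95.1% did in the genome. Each of the 28 was shorter than its 3 h partner: the medians were 600 bp at 15 min and 1150 bp at 3 h, and the median ratio was 1.93.

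Recall differed between efficiency classes. In the genome, 84.3% of high, 31.7% of medium and 4.55% of low class origins were recalled, and in the MHC 9 of 15 (60%, 32.3 to 83.7), 17 of 57 (29.8%, 18.4 to 43.4) and 2 of 41 (4.88%, 0.596 to 16.5). With the genome's share for each class, 32.6 of the 113 origins would have been recalled and 28 were. In class I this number was 14.0 and 9 were recalled, in class III 9.21 and 7, and in class II 1.99 and 3. All 4 high class origins of class III were recalled but 2 of 7 in class I (28.6%, 3.67 to 71.0). The 5 that were missed were those of HLA-B, HLA-C, RNF39 and DHX16 and one in the pseudogene HLA-H, of 0.929 from 29887801, and all were at most 600 bp long. In the genome, high class origins of at most 700 bp were recalled in 63.2% of cases and longer ones in 95.7%. In the MHC these counts were 1 of 7 (14.3%, 0.361 to 57.9) and 8 of 8 (100%, 63.1 to 100), and ZBTB22, in extended class II, was the other short one that was missed.

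Recall also differed with place and base composition. Origins within 1 kb of a coding start were recalled in 21 of 58 cases in the MHC (36.2%, 24.0 to 49.9) and in 68.7% in the genome, and the rest in 7 of 55 cases (12.7%, 5.27 to 24.5) and 20.2%. Within the high class, those near starts were recalled in 7 of 10 cases (70.0%, 34.8 to 93.3) and 91.1%, and within the medium class in 13 of 30 (43.3%, 25.5 to 62.6) and 50.1%. Both intervals of the MHC held the genome value, so within these classes the differences did not exceed counting error. Origins that met the CpG island criterion (GC content above 50% and an observed to expected CpG ratio above 0.6) were recalled in 24 of 73 cases in the MHC (32.9%, 22.3 to 44.9) and 66.0% in the genome, and other origins in 4 of 40 (10%, 2.79 to 23.7) and 10.2%. In class III, 7 of 21 CpG island origins were recalled and 0 of 16 others, which allows a share of up to 20.6%.

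**Figure D5:**
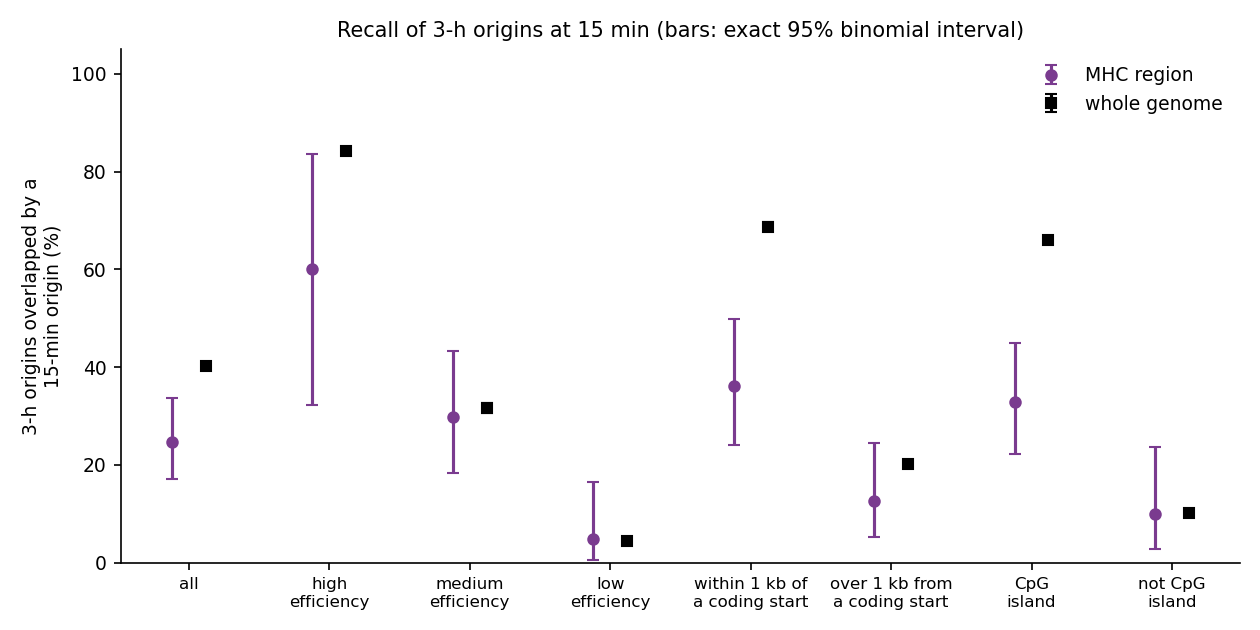
Share of 3 h origins, in percent, that a 15 min origin overlapped, in the MHC (circles) and the whole genome (squares), over all origins and split by efficiency class, distance to a coding gene start and CpG island criterion. Bars are exact 95% binomial intervals, too narrow to see for the genome; over all origins the shares were 24.8% and 40.1%.

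SNS-seq and ini-seq 2 met at nearly every origin of the region, as they did over the whole 3 h list. A peak of either fraction lay within 5 kb of 112 of 113 origins at 3 h (99.1%, 95.2 to 99.98), against 97.6% in the genome, and of every origin in class I, class III and class II. The exception, of efficiency 0.816 from 29295301 in extended class I, was 59420 bp from the nearest peak. How much of each block lies within 5 kb of a peak is not given here, so these shares are not set against peak density. Peaks of the 2 to 4 kb fraction overlapped 106 of 113 origins (93.8%, 87.7 to 97.5), near the 91.3% of the genome, and peaks of the 0.5 to 2 kb fraction 78 of 113 (69.0%, 59.6 to 77.4), below the 78.0% of the genome by a margin that the interval just excludes. Of the 0.5 to 2 kb peaks, 97 of 159 in class III (61.0%, 53.0 to 68.6), 76 of 171 in class I (44.4%, 36.9 to 52.2) and 13 of 33 in class II (39.4%, 22.9 to 57.9) lay within 5 kb of a 3 h origin, against 40.8% in the genome. For 2 to 4 kb peaks these shares were 62.5% (56.5 to 68.3), 42.1% (36.7 to 47.7) and 31.0% (17.6 to 47.1), against 45.3%. Origins were also denser in class III, where more of the block lies within 5 kb of one. The longest peaks lay on origins: in class III that of the short fraction, 2232 bp from 31896322 to 31898553, covered the C2 and EHMT2 origin, and in class II the longest of both fractions, 1498 bp from 32967907 and 3609 bp from 32967635, covered that of BRD2. The longest 2 to 4 kb peak of class III was 5458 bp from 32147393 to 32152850 and covered an origin of 0.893 in coding sequence of PRRT1.

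Mean GC content was 51.7% in class III, 45.8% in class I and 41.2% in class II, and 83, 51 and 16 windows of 1 kb exceeded 60% GC. A 3 h origin lay in 31 of 51 such windows in class I (60.8%, 46.1 to 74.2), 31 of 83 in class III (37.3%, 27.0 to 48.7) and 7 of 16 in class II (43.8%, 19.8 to 70.1), against 48.0% in the genome. Restricting these to windows with at least 90% unique 50-mers, a choice made after seeing the data, gave 29 of 36 in class I (80.6%, 63.98 to 91.8), 30 of 50 in class III (60%, 45.2 to 73.6) and 7 of 12 in class II (58.3%, 27.7 to 84.8). The value of class III thus moved from 37.3% to 60%, and no genome value was computed with this restriction. At 15 min, 33 of 191 GC-rich windows of the MHC held an origin (17.3%, 12.2 to 23.4), against 23.2% in the genome.

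The origins themselves had a median GC content of 65.4% (64.3 to 66.4), against 67.0% in the genome, and 73 of 113 met the CpG island criterion (64.6%, 55.05 to 73.4), against 53.7%. By block this was 32 of 42 in class I (76.2%, 60.5 to 87.9), 21 of 37 in class III (56.8%, 39.5 to 72.9) and 6 of 8 in class II. Every class III origin exceeded 50% GC, so those that missed the criterion did so by their CpG ratio. The GPSM3 stretch printed above comes from such an origin, picked for its low ratio. The median CpG ratio was 0.64 in class III and 0.73 in class I. A G-quadruplex motif, counted where 4 runs of 3 or more G stood 1 to 7 bases apart on either strand, was found in the central 300 bp of 46 of 113 origins (40.7%, 31.6 to 50.4), against 44.8% of all origins. It was found at the EHMT2, BRD2 and TAP1 origins and not at the HLA-B, RNF39 or GPSM3 origins.

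By annotation, 44 of the 113 origins covered the start of a coding gene and 14 more lay within 1 kb of one. In coding exons lay 33, in untranslated exons 4, in non-coding exons 11, in introns 2 and between genes 5. The non-coding exons were those of non-coding genes or pseudogenes and, for the origin from 31681201, of the coding gene LY6G5C. Median efficiency was 0.872 over starts, 0.844 in coding exons and 0.862 in non-coding exons, and 20 of the 28 origins called at 15 min covered a coding start. Uniqueness of the reference bore on few of the called origins: 104 of 113 consisted wholly of unique 50-mers, and 2 had under 90%, those at MICB and PBX2.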

How the data were processed

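The 4 lists were analysed as deposited, on hg38. Per the labels and the study's methods, reads were single-end and 50 bp long. Bowtie2 and MACS2 are named in the submitters' processing notes without versions. For ini-seq 2 the authors compared HL with LL reads in windows of 100 bp, kept windows past a log2 ratio of 2, joined windows within 500 bp and kept origins with an efficiency of at least 0.8. The deposited 3 h value is a fraction, HL over HL plus LL, although its column heading says Z-score. The deposited 15 min value is a score, the Z-score computed by the authors. The SNS-seq lists gave positions only and were taken as BED.

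Intervals were compared with coding gene starts of GENCODE 44, GC content and 50-mers unique in the reference. Each condition had 1 list, so exact counting intervals and no tests were used. Densities of SNS-seq peaks over the genome leave out unplaced scaffolds. Origins named were the 3 most and 2 least efficient and the longest of class I, class III and class II, those at the listed genes, the widest stretches without an origin, and the longest SNS-seq peaks. The printed stretches, the DDR1 and missed high class origins and the canonical gene start were chosen after values were seen. The members and gene lists were chosen with earlier results of these data known. Helper functions were tested on simulated data. Scripts ran under Python 3.11.15 with scipy 1.17.1, numba 0.67.0, numpy 2.4.6, matplotlib 3.10.9 and pandas 2.3.3. Alternatives varied efficiency, length, overlap, block borders, GC limit, window and distance to a start. The input DNA was not analysed here. Some listed items are not reported here.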

Additional observations from a re-analysis of the deposited data

How the results depend on the processing

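Of 95 alternatives to 24 values, 63 stayed within the main counting interval and 32 moved. No paired analysis was possible because each condition is 1 list. The order class III, class I, class II held for the density of 3 h origins and of both SNS-seq fractions under all alternatives run; the order of coding start shares became class I, class III, class II with canonical starts, and orders of recall and of GC-rich windows varied. With efficiency of at least 0.9, density was 4.89, 7.01 and 0 per Mb in class I, class III and class II, coding starts with an origin were 6.12%, 7.46% and 0%, and recall in class III was 100% (no class II origin remained, so recall there has no value). With origins of at least 500 bp, class III had 36.5 per Mb. Requiring 50% of an origin to be covered gave a class I recall of 7.14%. Joining the fractions gave 201 peaks per Mb in class I and 63.9 in class II for either fraction's result, and 428 in class III against the 0.5 to 2 kb value. Peaks of at least 500 bp numbered 20.7, 43.5 and 3.20 per Mb (0.5 to 2 kb) and 58.7, 105.2 and 12.8 (2 to 4 kb) in class I, class III and class II. In class III, borders from HLA genes alone gave 179 and 305 per Mb, and unique bases as length 263 and 455. GC-rich windows with an origin were 31% in class I and 23.6% in class III above 55% GC, 53.8% in class III above 65%, 41.8% in class I with 500 bp windows, and 80.6% and 60% in class I and class III with unique windows. Starts inside an origin were 26.5% in class I, and starts within 5 kb 64.2% in class III. The causes were not tested. The lists give neither replicates nor read counts for single intervals, which limits every value.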

Other observations

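The region also holds olfactory receptor genes, which encode odorant receptors, in the extended class I block. None of the 15 had a 3 h origin, a 15 min origin or a 0.5 to 2 kb SNS-seq peak within 1 kb of its start, and 1 had a 2 to 4 kb peak. Over all coding starts these shares were 55.4%, 38.7%, 65.2% and 73.6%. Their median distance to a 3 h origin was 101711 bp. From the first to the last of these starts, 29045175 to 29585121, there were 2 origins at 3 h, 14.8 and 29.6 SNS-seq peaks per Mb of the short and the long fraction, and a GC content of 38.7%. Of the other 9 coding genes of the block, 2 had a 3 h origin within 1 kb, TRIM27 and GABBR1, and both also had a 15 min origin.

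The extended class II block held 20 origins at 3 h, of which 6 were called at 15 min. The most efficient was that of PHF1, a Polycomb-associated gene, with 0.943, and the least efficient of the whole region was that of DAXX, a histone chaperone gene, with 0.801. RGL2 had the lowest 15 min Z-score of the region, -2.03.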
